A study of Mus musculus with 6 samples.

Results

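Retinoic acid, the active acid form of vitamin A, works by binding nuclear receptors that sit on DNA. Retinoic acid receptors (RARs) pair with retinoid X receptors (RXRs) on short repeated DNA sites and switch from repressing to activating nearby genes when the ligand binds. Retinol is oxidised to retinaldehyde by retinol dehydrogenases and then to retinoic acid by retinaldehyde dehydrogenases, small cellular retinoic acid-binding proteins (CRABPs) carry it, and enzymes of the CYP26 family break it down. In the embryo this pathway helps pattern the limb, hindbrain and body axis, and mesenchymal cells both make and respond to the ligand.

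The genes described here are the receptor genes Rara, Rarb, Rarg, Rxra and Rxrb, the carrier genes Crabp1 and Crabp2, the retinoic acid-making enzyme gene Aldh1a2 and the breakdown enzyme gene Cyp26b1. They were chosen by gene symbol, with earlier results of these data known. Of the 9 genes, 8 were analysed, among 23842 genes in the deposited count table. Aldh1a2 is not analysed here. The 8 genes all passed the filter on low counts.

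Total RNA was sequenced from cultured mouse embryonic fibroblasts (MEFs), cells grown out of embryos, of strain C57BL/6. The study compared 3 libraries with the genotype label NGLY1-/- (called knockout below) with 3 wild-type libraries, asking how expression changes when NGLY1, the cytosolic enzyme that removes N-linked glycans from misfolded glycoproteins, is missing. The cultures of both groups had serum and high glucose in the medium and were left untreated. The labels give no embryo age, no sex, no description of the deleted part of the gene and no statement that the libraries of a group came from separate embryos, so p-values measure the spread between these libraries, which may be technical.

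Libraries held 27323577 to 37841558 counts, with wild-type replicate 3 the shallowest. Ngly1 itself had 618, 420 and 457 counts in the knockout libraries and 668, 632 and 307 in the wild-type libraries (adjusted p = 0.99, edgeR's quasi-likelihood test), so a count over the whole gene does not check the genotype label. Of 14 fibroblast markers, 13 were tested, with 2 higher and 8 lower in the knockout, against 30.7% and 30.2% of all genes tested. The 14 markers summed to 9033 to 10347 counts per 1000000 library counts (CPM) in wild type and 11278 to 12561 CPM in the knockout. Lum was near 0 in both groups. Most of the knockout sum was the fibronectin gene Fn1, at 7151 CPM on average against 2092 CPM in wild type. The sum of the other 13 markers was lower in the knockout, at 4426 to 5136 CPM against 6937 to 8013 CPM. Summed epithelial, endothelial and haematopoietic markers were at 1.34 to 2.83, 1.72 to 2.95 and 2.12 to 3.66 CPM per library, with Epcam, Pecam1 and Ptprc under 0.25 CPM on average. Of their 7 tested genes, Grhl2 (0.731 CPM in the knockout against 0.0249 CPM in wild type) and Kdr (2.19 against 1.14 CPM) were higher in the knockout, and Krt8 (0.0403 against 0.963 CPM) and Cdh1 (2.84-fold, to 0.243 CPM) were lower. Neural markers summed to 232 to 380 CPM, most of it the intermediate filament gene Nes, which many cultured mesenchymal cells also express, and Tubb3 and Sox2 of that list were higher in the knockout.

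One sequence is shown first because it is the best-known binding site of these receptors and lies in the gene of this set with the largest difference. The sequences used here held 1 RefSeq start of Rarb (GRCm38.p6, minus strand). It lies inside the gene's span, which ends at 17082331, and whether these cells use it was not tested. That start is preceded by these 250 bases at chr14:16575477-16575726, in which capitals mark both copies of the receptors' core binding site:
Rarb upstream: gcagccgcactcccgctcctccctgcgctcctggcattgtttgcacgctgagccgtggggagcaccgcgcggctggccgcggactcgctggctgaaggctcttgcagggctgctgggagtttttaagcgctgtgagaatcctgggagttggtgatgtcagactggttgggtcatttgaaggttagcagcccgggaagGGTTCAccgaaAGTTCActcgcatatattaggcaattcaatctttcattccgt
Cyp26a1 upstream: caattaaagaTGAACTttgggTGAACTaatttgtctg

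The Cyp26a1 stretch (chr19:37697766-37697802, plus strand) is shown beside it because this gene of a related breakdown enzyme was the other gene with such a repeat among those of the pathway that were searched, there on the opposite strand, so that the capitals read as the reverse complement. The search looked on both strands for a core site (AGGTCA, the variant AGTTCA, the variant GGTTCA or the variant GGGTCA) followed by another in the same direction with a spacer of 5 bases. The repeat lay from -53 to -37 before the Rarb start and from -32 to -16 before the Cyp26a1 start. Of all 32851 RefSeq windows running from 250 bases before to 50 after a start, 32 (0.0974%) held it. Windows were found for 8 of the 9 genes of the set, all but Crabp2, and in the 7 other than Rarb no window held these letters with spacers of 1, 2 or 5 bases. A match describes letters only and was not tested for binding. The Cyp26a1 stretch, like that of Rarb, lies inside its gene's span, which begins at 37697738. Whether these cells use the Cyp26a1 start searched here was not tested.

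Rarb encodes retinoic acid receptor beta, whose own gene is a known retinoic acid target. Wild type gave 88, 58 and 24 counts, and the knockout 0, 3 and 0. Scaled to library size these were 2.16, 1.49 and 0.878 CPM against 0, 0.0914 and 0 CPM. Every wild-type library was above every knockout library, although Rarb was a rare transcript in both groups, and wild-type replicate 3 was the lowest of its group. A count of 0 allows up to 3 counts, or 0.0885 CPM in knockout replicate 1 and 0.0846 CPM in knockout replicate 3. Over each group the ratio of wild type to knockout was 54.1, with an exact 95% counting interval of 18.2 to 265, which covers counting error only. The edgeR fit gave an adjusted p of 0.000207. The 3 counts were all in knockout replicate 2. Without that library the gene was 36.8-fold lower when the knockout group is set to a floor of 3 counts in all, a value that leaves out counting error. In bulk RNA, fewer cells expressing a gene and less RNA per cell cannot be told apart.

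Rarb (gene ID 218772) lies on chromosome 14 from 16430839 to 17082331 in GRCm38, on the minus strand and close to the gene named in the genotype. Ngly1 ends 118912 bases before the lower end of Rarb, with Top2b, a DNA topoisomerase gene on the plus strand, between them and only 51 bases from Rarb. Top2b was 1.41-fold higher in the knockout (adjusted p = 0.00148 in edgeR) and Oxsm, a mitochondrial ketoacyl synthase gene beyond Ngly1, was 2.10-fold higher (adjusted p = 0.000646). On the other side, the thyroid hormone receptor gene Thrb had 1, 1 and 0 counts in the knockout libraries and 0 in each wild-type library, too few to test. Tpi-rs9, a pseudogene inside Rarb, had 0, 1 and 0 counts in the knockout and 3, 3 and 6 in wild type, and reads of overlapping genes such as these, or Oxsm and Ngly1, could have been assigned to either. Nr1d2, a clock receptor gene 1121724 bases away, had a log2 fold change of -0.10 ± 0.09 (SE; adjusted p = 0.378). None of the tested neighbours named here, Oxsm, Ngly1, Top2b and Nr1d2, was called lower in the knockout. An effect of the altered Ngly1 allele nearby and one of missing NGLY1 cannot be told apart here. Of 45 other tested genes with midpoints within 5 Mb of the Rarb start used above, 15 were higher and 6 lower in the knockout. Their median log2 fold change was 0.03. Of all tested genes, 30.7% were higher and 30.2% lower, and of 516 other tested genes of chromosome 14, 181 were higher and 118 lower. The lowest of those 45 was Gm8483, at -2.17 on the log2 scale, and the highest was the potassium channel gene Kcnk5, at 8.96.

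**Figure D1:**
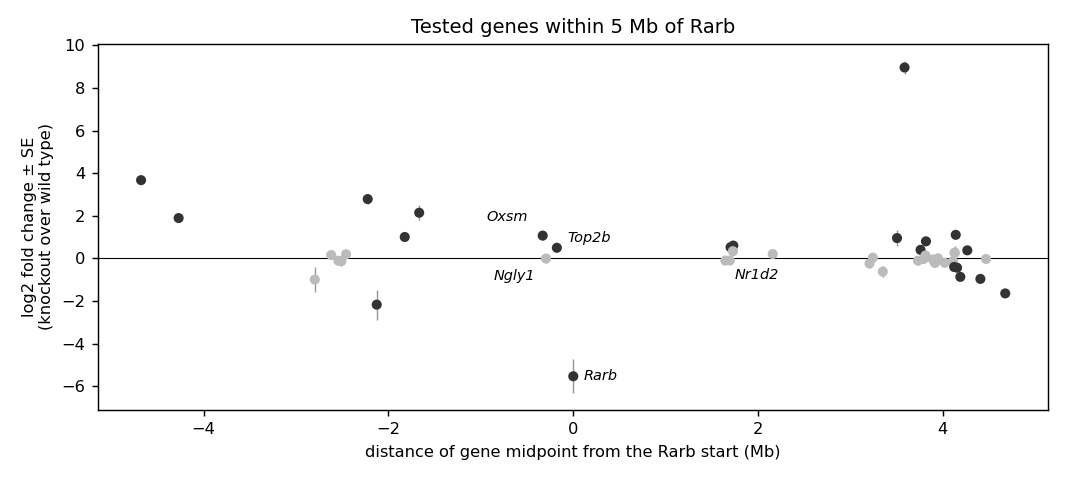
Log2 fold change (knockout over wild type, with SE) of tested genes against the distance of their midpoint from the Rarb start in Mb. The start is the one inside the gene whose upstream bases are printed above, and Rarb itself is placed at 0. Dark points passed a false discovery rate of 0.05 and grey points did not. Rarb is the lowest point, while Oxsm and Top2b are above 0 and Ngly1 and Nr1d2 are near it. The fitted value of Rarb rests on 3 knockout counts.

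Rara encodes retinoic acid receptor alpha, the widely expressed member of the family. Its level was 38.3, 37.9 and 41.4 CPM in the wild-type libraries and 18.8, 22.0 and 27.3 CPM in the knockout libraries. The groups did not overlap, and the wild-type libraries were closer to each other than the knockout ones. Rara was 1.72-fold lower in the knockout (log2 fold change -0.79 ± 0.14 SE, adjusted p = 0.000739, edgeR's quasi-likelihood test). The gene (ID 19401) lies on chromosome 11 from 98927800 to 98974942. Within 1 Mb of Rara, 12 of 30 other tested genes were lower and 4 higher, with a median log2 fold change of -0.26. Of 1154 other tested genes of chromosome 11, 27.4% were lower, and of all tested genes 30.2% were lower and 30.7% higher. The part of this in the result for Rara was not tested.

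Rarg encodes retinoic acid receptor gamma, a receptor typical of mesenchyme, cartilage and skin. It had 124, 122 and 112 CPM in the wild-type libraries and 104, 109 and 111 CPM in the knockout libraries. The groups just failed to overlap, with wild-type replicate 3 close to knockout replicate 3, and the difference did not pass the test (log2 fold change -0.15 ± 0.09 SE, adjusted p = 0.165, edgeR). Scaled by library totals only, which shifted the median of all genes by -0.12 on the log2 scale, Rarg passed with a log2 fold change of -0.26 (adjusted p = 0.0342). The gene (ID 19411) lies on chromosome 15 from 102234938 to 102257522.

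The RXR genes encode the partners that RARs need to bind DNA, and that also pair with other nuclear receptors. Rxra had 63.8, 57.8 and 50.05 CPM in the wild-type libraries and 58.1, 60.8 and 55.2 CPM in the knockout libraries. It was the only gene of the set whose groups overlapped, and its log2 fold change was 0.02 ± 0.11 (SE, adjusted p = 0.892 in edgeR), with the sign turning when scaled by library totals only (-0.10) and without wild-type replicate 3 (-0.05). Rxrb had 51.6, 48.6 and 42.4 CPM in the wild-type libraries and 52.1, 59.8 and 56.5 CPM in the knockout libraries. Knockout replicate 1 lay just above wild-type replicate 1, and the log2 fold change of 0.24 ± 0.11 (SE) did not pass after adjustment (adjusted p = 0.0756, edgeR). Rxra (ID 20181) lies on chromosome 2 from 27676445 to 27763319 and Rxrb (ID 20182) on chromosome 17 from 34031812 to 34038403.

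**Figure D2:**
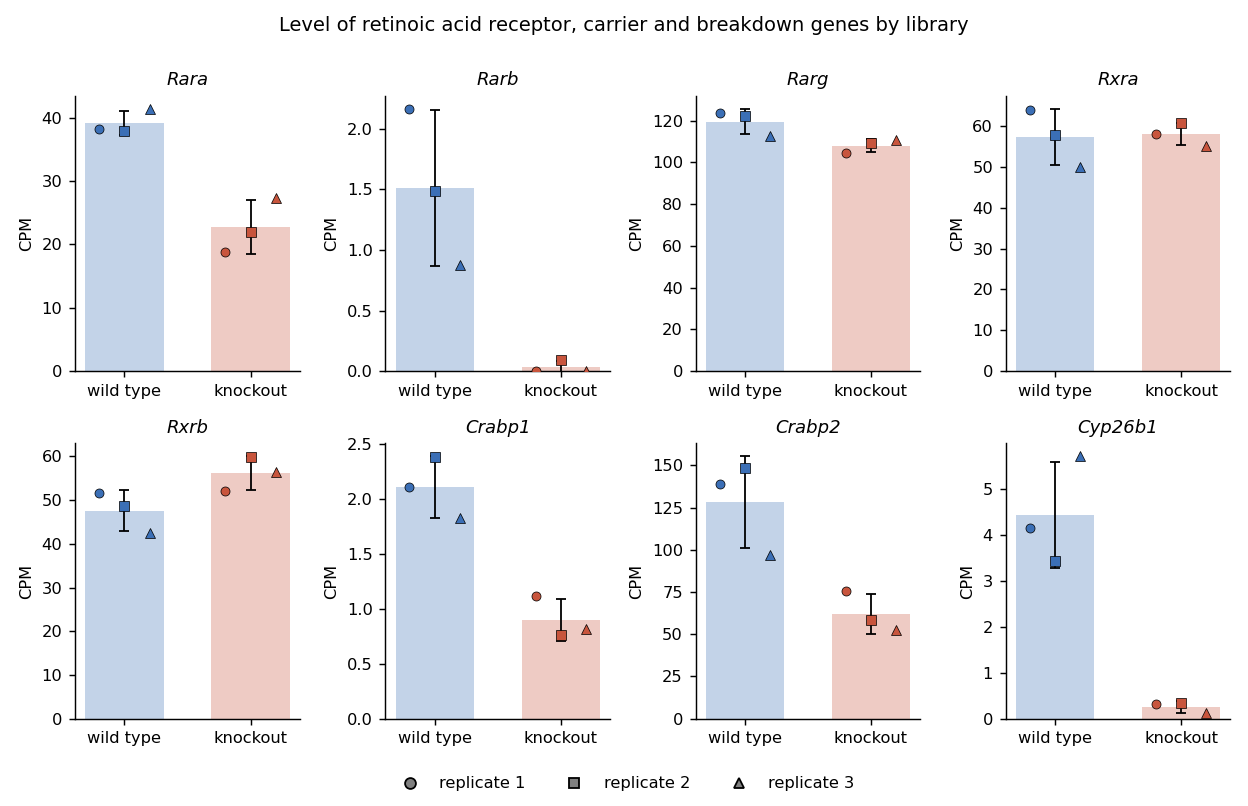
Level in CPM of the 8 genes analysed, by group. Bars are group means, error bars the SD over 3 libraries and symbols the single libraries. Rara, Rarb, Crabp1, Crabp2 and Cyp26b1 are lower in every knockout library than in any wild-type library, while the groups overlap for Rxra. Each panel has its own scale, starting at 0.

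Crabp2 encodes the carrier that hands retinoic acid to the receptors in the nucleus. It had 139, 148 and 97.2 CPM in the wild-type libraries and 75.5, 58.1 and 52.2 CPM in the knockout libraries. All knockout libraries were below all wild-type libraries, and wild-type replicate 3 stood between the other wild-type libraries and the knockout. Crabp2 was 2.07-fold lower in the knockout (log2 fold change -1.05 ± 0.18 SE, adjusted p = 0.000977, edgeR). Without wild-type replicate 3 and knockout replicate 3 its log2 fold change was -1.09. The gene (ID 12904) lies on chromosome 3 from 87948693 to 87953372.

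Crabp1 encodes the related carrier that is thought to hold retinoic acid in the cytosol and pass it to breakdown. Wild type gave 86, 93 and 50 counts and the knockout 38, 25 and 29, or 2.11, 2.39 and 1.83 CPM against 1.12, 0.762 and 0.818 CPM. The groups did not overlap, at levels far under those of Crabp2. Crabp1 was 2.35-fold lower (log2 fold change -1.23 ± 0.29 SE, adjusted p = 0.00449, edgeR). The gene (ID 12903) lies on chromosome 9 from 54764748 to 54773110, and of the other 789 tested genes of that chromosome 49.7% were lower in the knockout, with a median log2 fold change of -0.43. Its part in the result for Crabp1 was not tested. The transcripts of the 8 genes in GENCODE release M21 shared 0 stretches of 31 bases between any pair, so reads of that length from one could not match another exactly.

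Cyp26b1 encodes the CYP26 enzyme that clears retinoic acid in limb and other mesenchyme. Wild type gave 169, 134 and 156 counts, and the knockout 11, 11 and 4. These were 4.15, 3.44 and 5.71 CPM against 0.324, 0.335 and 0.113 CPM, so the lowest wild-type library was far above the highest knockout library. Cyp26b1 was 17.1-fold lower (log2 fold change -4.09 ± 0.40 SE, adjusted p = 1.51e-05, edgeR). Without both libraries numbered 3 the log2 fold change was -3.50. The gene (ID 232174) lies on chromosome 6 from 84571414 to 84593908, where 47.1% of 705 other tested genes were lower, with a median of -0.40 on the log2 scale, and the part of this in the result was not tested. Within 1 Mb of Cyp26b1, 7 of 17 other tested genes were lower and 3 higher, against 30.2% lower and 30.7% higher of all tested genes.

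In all, 5 of the 8 genes passed a false discovery rate of 5% and all 5 were lower in the knockout. Of all 15039 tested genes, 60.9% passed, 30.7% as higher and 30.2% as lower. The share of called genes in the set was therefore near that of all genes, and its direction was to one side. The set was chosen with earlier results of these data known, and its direction was not tested. The groups did not overlap for 7 of the 8 genes, against 67.3% of all tested genes. The median log2 fold change of the 8 was -0.92, against -0.04 over all tested genes. Each library left out in turn kept the same number of calls, 5.

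Per length, using exon lengths from GENCODE, the order of the levels was the same in both groups. Crabp2 led with 96.9 ± 20.5 CPM per kb in wild type and 46.9 ± 9.15 in the knockout (SD, n = 3 each), followed by Rarg with 28.04 ± 1.43 and 25.4 ± 0.740 CPM per kb. Rxrb (11.97 ± 1.19 and 14.1 ± 0.967), Rxra (10.5 ± 1.27 and 10.6 ± 0.510) and Rara (8.98 ± 0.435 and 5.20 ± 0.984) came next. Crabp1 (2.63 and 1.12), Cyp26b1 (0.828 and 0.0481) and Rarb (0.287 and 0.00579) were the rarest. In wild type, the libraries of Rxrb and Rxra overlapped, as did those of Rxra and Rara, so these neighbours were not ordered beyond their spread. In the knockout no neighbours in this order overlapped. For Cyp26b1 and Rarb this rested on 4 counts in knockout replicate 3 against 3 counts in knockout replicate 2, near the floor.

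Among the RAR genes, Rarg made up the largest share of the summed level per length in every library. Its share was 76.0, 76.2 and 73.2% in the wild-type libraries and 85.1, 83.5 and 80.6% in the knockout libraries. Rara made up 22.9, 23.1 and 26.3% against 15.0, 16.4 and 19.4%, and Rarb 1.08, 0.751 and 0.463% against 0, 0.0566 and 0%. The RAR balance thus differed between the groups with no overlap of libraries. The summed RAR level was 37.3 ± 1.12 CPM per kb in wild type and 30.6 ± 1.68 in the knockout (SD, n = 3 each). Rxra made up 46.6 ± 0.617% of the summed Rxra and Rxrb level in wild type and 42.9 ± 1.65% in the knockout, also without overlap. Neither Rxra nor Rxrb passed the test, and the groups did not overlap for 67.3% of all tested genes. Shares within a family are tied, so a lower Rara raises the share of Rarg, which itself did not pass. With 3 libraries against 3, an exact two-sided permutation test cannot give a p under 0.1, so these shares are given as values.

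**Figure D3:**
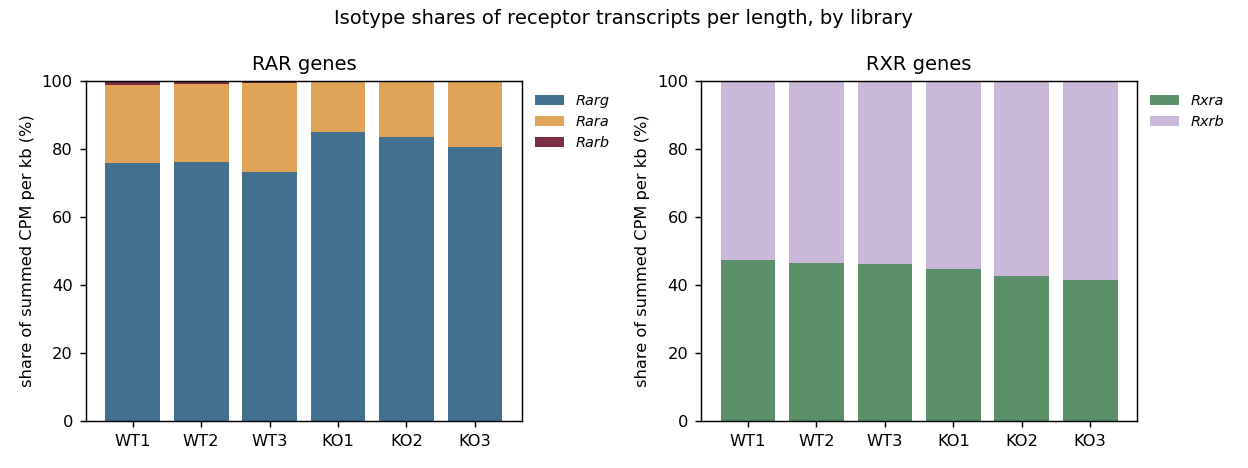
Share of each gene in the summed RAR level (left) and the summed Rxra and Rxrb level (right), in percent of CPM per kb. Libraries are WT1 to WT3 (wild type) and KO1 to KO3 (knockout). Rarg takes 80.6 to 85.1% of the RAR level in the knockout libraries and 73.2 to 76.2% in the wild-type libraries. Rarb is visible only in the wild-type bars.

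Wild-type replicate 3 often stood apart from the other wild-type libraries. It was the lowest of its group for Rarb, Rarg, Rxra, Rxrb, Crabp1 and Crabp2 and the highest for Rara and Cyp26b1. Among other genes that respond to retinoic acid it was also the lowest for Dhrs3, a retinaldehyde reductase gene, at 1.87 CPM against 5.43 and 3.57 CPM in the other wild-type libraries and 2.37 to 2.83 CPM in the knockout. Dhrs3, chosen after its values were seen, did not pass with all 6 libraries (log2 fold change -0.51, adjusted p = 0.219, edgeR) and passed without wild-type replicate 3 (-0.80, adjusted p = 0.00408). The calls of Rara, Rarb, Crabp1, Crabp2 and Cyp26b1 held without that library.

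Of 16 tested genes of retinoid supply and retinoic acid synthesis, 7 were higher and 4 lower in the knockout, with a median log2 fold change of 0.42, while 30.7% of all tested genes were higher and 30.2% lower. With at least 1 CPM in 3 libraries, 6 genes of this list were higher and 2 lower. The retinaldehyde dehydrogenase gene Aldh1a1 had 5.92, 7.22 and 7.98 CPM in wild type and 0.0590, 0 and 0.141 CPM in the knockout, 97.9-fold lower (adjusted p = 2.26e-06, edgeR; log2 fold change -6.61, and -7.69 without knockout replicate 3). Its near-identical relative Aldh1a7, which could exchange reads with it, moved the same way, with a log2 fold change of -4.96 (-6.44 without knockout replicate 3). Another dehydrogenase gene of this kind, Aldh1a3, went the other way. It was named with its values in view and had 19, 10 and 12 counts in the knockout against 0 in each wild-type library. With the wild-type group set to a floor of 3 counts in all, Aldh1a3 was 14.3-fold higher. The exact 95% counting interval of its ratio began at 11.1. Adh7 and Dhrs9, enzymes that can oxidise retinol, rose 7.26-fold and 4.75-fold and Adh5, a formaldehyde-clearing alcohol dehydrogenase gene, 1.92-fold. Rdh10, the main embryonic retinol dehydrogenase gene, also named after its values were seen, was 2.01-fold lower.

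The list of breakdown and delivery genes held the other CYP26 genes. Cyp26c1 was higher in the knockout, at 1.28 ± 0.101 CPM against 0.162 ± 0.129 CPM in wild type (SD, n = 3 each, with an edgeR adjusted p of 0.000754), opposite to Cyp26b1, with 12, 6 and 1 counts in wild type (log2 fold change 2.87, and 3.59 without wild-type replicate 1). Cyp26a1, whose upstream repeat is printed above, had 0.639, 0.591 and 0.183 CPM in wild type and 0.324, 0.396 and 0.310 CPM in the knockout. Its groups overlapped and it did not pass (adjusted p = 0.405). Fabp5, a carrier that delivers retinoic acid to another receptor, was 2.05-fold lower and Por, the reductase that feeds electrons to CYP enzymes, 1.603-fold lower.

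Among RXR partners and related receptors, 3 of 12 tested genes were higher and 3 lower (median -0.20), and 3 and 5 when scaled by library totals only. Nr2f2, an orphan receptor gene known to oppose RAR activity, rose 2.19-fold, and Pparg and Vdr, the fat-cell and vitamin D receptor genes, each rose 2.39-fold. The thyroid hormone receptor gene Thra was 1.75-fold lower. Thra lies on chromosome 11 from 98740776 to 98769006, among the neighbours within 1 Mb of Rara counted above. Of 16 coregulator genes, 2 were higher and 5 lower (median -0.17), against 30.7% higher and 30.2% lower of all tested genes. With scaling by library totals alone, 8 of them were lower and 2 higher. The coactivator gene Ncoa3 rose 2.001-fold and the corepressor enzyme gene Hdac3 1.65-fold, and Trim24 and the corepressor subunit gene Tbl1xr1 were 2.22-fold and 1.70-fold lower.

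Of 15 tested genes known to respond to retinoic acid, 3 were higher and 4 lower, against 30.7% higher and 30.2% lower of all tested genes, with a median log2 fold change of -0.11. Stra6, the membrane receptor gene for retinol uptake, had 44, 37 and 14 counts in wild type and 0, 1 and 2 in the knockout, a ratio of 30.3 with an exact 95% counting interval of 10.0 to 149 (59.3 without knockout replicate 3). The transcription factor gene Hic1 was 22.5-fold lower and Tgm2, a transglutaminase gene, 3.26-fold lower, while Rai14 rose 2.67-fold. The homeobox gene Hoxb4, named with its values in view, had 2 counts over wild type and 74 over the knockout, a ratio of 38.7 (exact 95% counting interval 10.3 to 326). Rarres1, likewise named with its values in view, was the other gene that rose and reached 0.440 CPM.

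**Figure D4:**
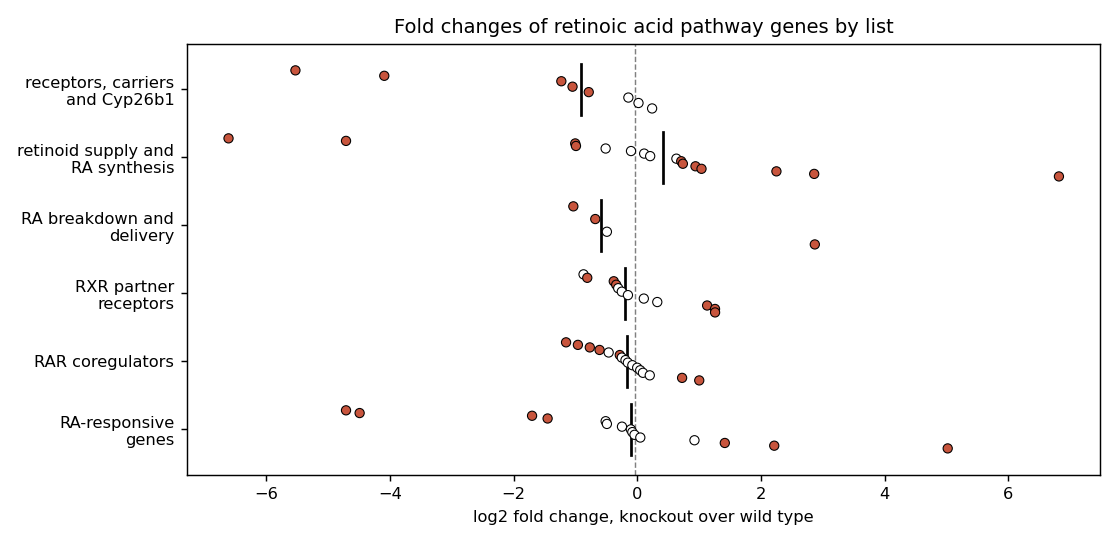
Log2 fold change (knockout over wild type) of every tested gene in 6 lists. Filled points passed a false discovery rate of 0.05, short vertical bars are list medians and the dashed line is the median of all tested genes. The top row holds the 8 genes of the set, with 5 filled points, all below 0, while the other lists have filled points on both sides. Extreme points rest on groups with few or no counts and depend on the fit.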

How the data were processed

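The authors deposited raw read counts, whole numbers per gene for 6 libraries. Per the labels' protocols, RNA was extracted with Trizol and the library kit was stranded. The submitters' processing notes name STAR 2.5.1b and mm10. Which counting program, annotation and strand setting were used is not given in the sources used here, and reads of overlapping or antisense genes may have been exchanged. 0 rows named no gene, and 0 columns went unused.

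Counts were tested in R 4.3.3 with edgeR 4.0.16: filterByExpr, trimmed mean of M values (TMM) scaling, a robust quasi-likelihood fit of genotype alone over all 15039 tested genes, two-sided, with Benjamini-Hochberg adjustment at 0.05. CPM use TMM-scaled library sizes. Genes with 0 to 3 counts over a group appear as a ratio of group totals with an exact 95% interval, or against a floor of 3 counts. Alternatives used DESeq2 1.42.0, limma 3.58.1 (voom), other scalings and filters, a replicate term and left-out libraries. The edgeR steps were tested on simulated counts in which few genes changed, all of them well expressed. Changes of rare transcripts, or of most genes at once, were not simulated.

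Positions come from a RefSeq table of GRCm38, the assembly that mm10 denotes, in which 97.3% of tested gene IDs were found. Exon lengths and strands come from GENCODE M21, and sequences from RefSeq (GRCm38.p6). The genes described and the 5 lists of related genes (78 symbols) were chosen with earlier results of these data known. Named beyond the set were up to 4 called genes of each list by p, all genes of a list with 5 or fewer tested, Ngly1 and the 4 nearest genes on each side of Rarb. Cell type markers, and the lowest and highest genes near Rarb, are named as well. Other genes named beyond this are said to be chosen after their values were seen, except Aldh1a7, a close relative of Aldh1a1. 1 gene of these lists is not reported here.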

Additional observations from a re-analysis of the deposited data

How the results depend on the processing

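The calls of Rara, Crabp1, Crabp2 and Cyp26b1 kept their direction and stayed past the threshold in all 15 alternatives, and that of Rarb in the 14 that gave it a value. With at least 1 CPM in 3 libraries Rarb was not tested, 4 genes of the set were called instead of 5, and 4 retinoic acid-responsive genes instead of 7, because fewer genes were tested. Scaled by library totals only, Rarg passed (log2 fold change -0.26, adjusted p = 0.0342) and 6 genes of the set were called, while 42.4% of all called genes were higher, against 50.4% with TMM scaling. Rxra, near 0 throughout, changed sign to -0.10 with library totals only, -0.018 with at least 1 CPM in 3 libraries and -0.020 without both libraries numbered 3, and ranged from -0.054 to 0.10 with single libraries left out. Ngly1 changed sign to 0.024 with no low-count filter and 0.00085 with the replicate block, and ranged from -0.18 to 0.10 with single libraries left out. For these sign changes the cause was not tested. The replicate numbers were not shown to pair the libraries: same-numbered libraries' deviations correlated at 0.0961, 0.0138 and 0.209, and not every library correlated best with its own number. With the replicate number as a block 9253 genes were called against 9160, and the same number of the set, 5. Aldh1a2 gave no value. The calls of Rara, Rarb, Crabp1, Crabp2 and Cyp26b1 rest on counts from 0 to 5770 per library, with 0 to 3 counts of Rarb in the knockout libraries. Leaving out both libraries numbered 3 or the structural RNA genes was chosen after seeing the data.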
